A study of Mus musculus with 16 samples.

Results

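Ionocyte-like microvillar cells are rare non-neuronal cells of the olfactory epithelium, and 10 genes that mark them were followed here across GFP+ and GFP- cells of odor-exposed and vehicle-exposed mice. The genes were taken by symbol from a list set for this cell class: Foxi1, Ascl3, Coch, Cftr, Hepacam2, Atp6v0d2, Atp6v1b1, Atp6v1g3, Moxd2 and Itpr3. Of these 10, 9 were measured, out of 19505 genes tested, and each was read by 1 probe set. Itpr3 was not analysed here.

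The mice carried S100a5-tauGFP, a reporter whose green fluorescent protein (GFP) is made under the S100a5 promoter. S100a5 encodes a calcium-binding protein that sensory neurons make when they are active. The odor group received pulses of indole/ionone and the vehicle group pulses of filtered air, 10 s long every 20 min, starting at hour 26 of 40 h in chambers flushed with clean air at 3.1 L/min. The 24 mice were of both sexes and 7 to 12 weeks old. Olfactory mucosa was pooled from 3 mice per sort, which gave 4 odor pools and 4 vehicle pools, each with 1 GFP+ and 1 GFP- sample on a Clariom S array. GFP marks neurons by their activity, so the GFP- cells are a mixture of every unlabelled cell, sensory neurons included, and ionocyte-like cells were not sorted for.

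An ionocyte is an epithelial cell rich in the vacuolar proton pump (V-ATPase) and in ion channels, which moves acid and salt across the epithelium. Its gene programme is set by the forkhead factor Foxi1 in kidney, inner ear and airway. In the olfactory epithelium, microvillar cells reach the surface between the sensory neurons, and a class that expresses Foxi1, Cftr and pump subunits is set apart from the Trpm5 class, which resembles the tuft or brush cells of other epithelia.

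To show what regulatory sequence accompanies the expression values below, the 250 bases before the annotated start were read from the RefSeq promoter table of mouse build GRCm38.p6, which held 8 of the 9 measured genes. The forkhead core TGTTTA, or TAAACA on the other strand, was searched because Foxi1 is a forkhead factor. It occurred in 2 of the 8 promoters, those of Ascl3 and Atp6v1b1, and in 12.03% of 32851 mouse promoters of the same length. Ascl3 held 2 matches, starting at -180 and -56, and Atp6v1b1 held 1 at -98, counted from the start. The E-box CAGCTG, which reads the same on both strands and is a kind of site bound by basic helix-loop-helix factors such as Ascl3, occurred in 1 of the 8, that of Hepacam2 at -31, and in 13.0% of all promoters. No match of one motif overlapped a match of the other. Shown are the promoters with a forkhead core and those of Foxi1, Coch and Cftr, the genes whose levels moved most closely together across the GFP- samples. Capitals mark the forkhead core.
Ascl3, chr7:109731733-109731982, - strand: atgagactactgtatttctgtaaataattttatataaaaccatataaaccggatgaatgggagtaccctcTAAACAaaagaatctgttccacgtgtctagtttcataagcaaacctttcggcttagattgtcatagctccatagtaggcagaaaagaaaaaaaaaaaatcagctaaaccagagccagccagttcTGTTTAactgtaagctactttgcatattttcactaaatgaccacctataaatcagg
Atp6v1b1, chr6:83742767-83743016, + strand: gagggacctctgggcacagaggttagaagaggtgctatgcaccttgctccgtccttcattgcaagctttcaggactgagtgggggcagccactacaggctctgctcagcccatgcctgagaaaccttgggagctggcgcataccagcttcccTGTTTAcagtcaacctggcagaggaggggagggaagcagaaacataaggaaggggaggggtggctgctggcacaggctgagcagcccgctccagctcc
Foxi1, chr11:34208090-34208339, - strand: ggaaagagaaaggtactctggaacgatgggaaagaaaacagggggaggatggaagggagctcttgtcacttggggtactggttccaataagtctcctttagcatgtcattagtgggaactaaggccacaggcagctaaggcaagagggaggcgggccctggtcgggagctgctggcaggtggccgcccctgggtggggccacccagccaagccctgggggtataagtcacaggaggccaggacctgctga
Coch, chr12:51593091-51593340, + strand: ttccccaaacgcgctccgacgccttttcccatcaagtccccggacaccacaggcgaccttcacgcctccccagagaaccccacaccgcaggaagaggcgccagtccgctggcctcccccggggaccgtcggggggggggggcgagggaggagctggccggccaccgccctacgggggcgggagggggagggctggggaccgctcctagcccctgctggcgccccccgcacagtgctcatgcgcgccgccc
Cftr, chr6:18170437-18170686, + strand: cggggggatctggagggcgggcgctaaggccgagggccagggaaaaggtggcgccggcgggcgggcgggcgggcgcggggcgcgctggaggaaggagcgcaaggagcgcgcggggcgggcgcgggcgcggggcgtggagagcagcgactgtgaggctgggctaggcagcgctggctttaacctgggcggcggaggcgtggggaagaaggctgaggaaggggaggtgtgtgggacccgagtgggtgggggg
The promoters of Coch and Cftr were 74.8% and 76.4% G and C, while that of Ascl3 was 34.8% G and C. A match of letters is a description of the sequence only.

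The arrays were comparable in quality. Arrays of one group correlated at 0.974 to 0.987 over all 28846 probes. On the second principal component, 1 sample stood apart, the GFP- cells of odor replicate 3, at 58.9 against at most 24.6 elsewhere. Values are log2 levels as deposited. The background of an array was taken as the median of its 23 antigenomic probe sets, which match no mouse sequence, and these medians ran from 5.63 to 6.05. In the pools numbered 3 of both arms, 3 Y-linked genes lay at 2.76 to 4.09, under background, against 6.42 to 12.09 in the other pools, so sex differed with the pool number. Markers of mature sensory neurons did not separate the fractions, with 0 of 9 passing the test in either arm. Of these, Cngb1 was under background on every array and has no measured difference. The highest level of Stoml3 was the same, 19.34, in vehicle GFP+ cells and in GFP- cells of both arms. Whether such bright probes had reached a ceiling was not tested.

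Of the 9 measured genes, 7 were lower in GFP+ than in GFP- cells, in odor pools and again in vehicle pools. They were Foxi1, Ascl3, Coch, Cftr, Hepacam2, Atp6v0d2 and Atp6v1b1. Over all genes, 10.6% were lower in odor pools and 10.8% in vehicle pools. The median log2 difference, GFP+ minus GFP-, of the 9 genes was -2.82 in odor pools and -3.07 in vehicle pools, against 0.11 and 0.11 over all genes. These medians are on levels as measured, those under background included. The odor median is the value of Atp6v0d2, which was above background in 1 of 4 GFP+ samples of odor pools. Groups that did not overlap, with all 4 GFP+ samples below all 4 GFP- samples, were seen for 7 of the 9 genes in odor pools and 6 of the 9 in vehicle pools, against 10.6% and 10.9% of all genes. Each test used limma on the differences within pools, with Benjamini-Hochberg adjustment over all genes and a threshold of 0.05. In bulk samples such as these, fewer cells of a type and less RNA per cell cannot be told apart.

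**Figure D1:**
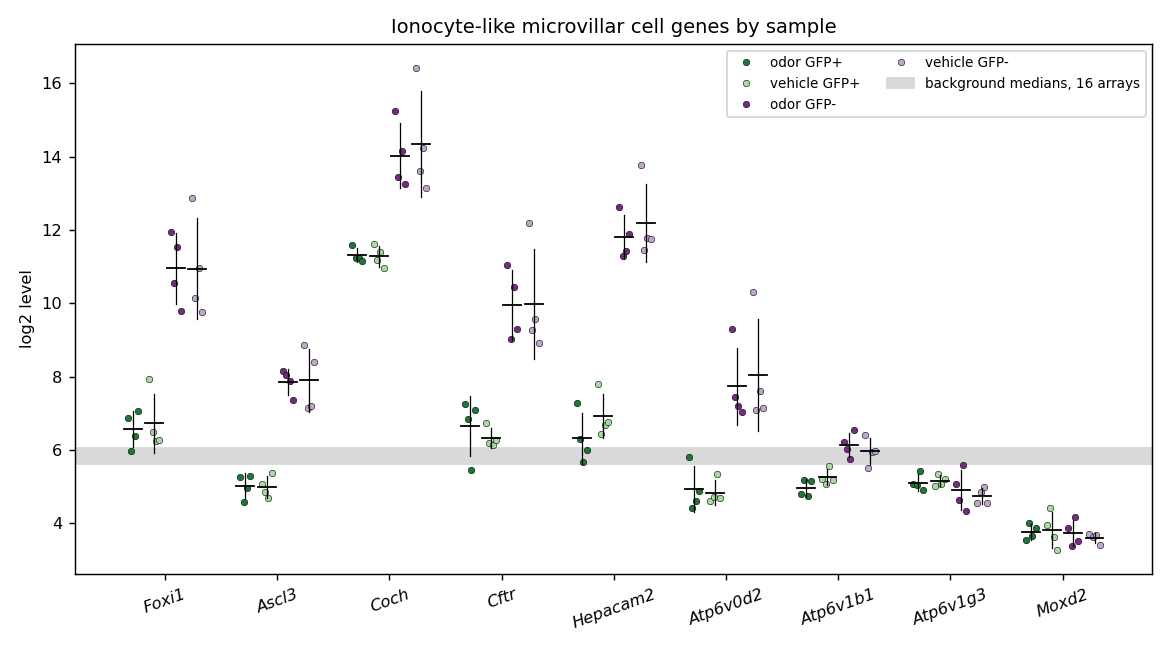
Log2 level (vertical axis) of the 9 measured genes in each of the 16 samples, grouped as odor GFP+, vehicle GFP+, odor GFP- and vehicle GFP-. Points are pools, horizontal bars are means, vertical bars are SD over 4 pools, and the grey band spans the background medians of the arrays. Foxi1, Ascl3, Coch, Cftr, Hepacam2 and Atp6v0d2 have every GFP- point above every GFP+ point, and Atp6v1g3 and Moxd2 lie under the band.

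Foxi1 and Ascl3 are the transcription factors of the list. Foxi1, the forkhead regulator of ionocytes, had log2 levels of 6.87, 5.96, 6.38 and 7.06 in GFP+ cells of the 4 odor pools, against 11.95, 10.55, 11.54 and 9.79 in their GFP- cells. In vehicle pools it had 7.92, 6.48, 6.23 and 6.27 in GFP+ cells, against 12.87, 10.15, 10.96 and 9.77 in GFP- cells. The fractions did not overlap in either arm, and GFP+ cells lay close to the background in all pools but vehicle replicate 1. The log2 difference of Foxi1, GFP+ minus GFP-, was -4.39 ± 0.37 in odor pools (SE, n = 4 pools, limma adjusted p = 4.96e-06), a 20.9-fold lower level in GFP+ cells, and -4.21 ± 0.37 in vehicle pools (adjusted p = 6.92e-06).

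Ascl3, a basic helix-loop-helix factor of microvillar and gland progenitors, had log2 levels of 5.26, 4.57, 4.96 and 5.29 in GFP+ cells of odor pools, against 8.16, 8.03, 7.88 and 7.35 in GFP- cells. The vehicle pools had 5.08, 4.85, 4.68 and 5.36 in GFP+ cells, against 8.85, 7.14, 7.19 and 8.39 in GFP- cells. Its signal was under the background in all 8 GFP+ samples and above it in all 8 GFP- samples. The difference is therefore a lower limit. With the GFP+ level set at the background, Ascl3 was at least 3.90-fold lower in GFP+ cells of odor pools and at least 4.16-fold lower in those of vehicle pools. On the measured values the limma adjusted p was 8.59e-06 in odor pools and 7.15e-06 in vehicle pools.

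Among the surface and secreted products, Cftr encodes the chloride and bicarbonate channel that is mutated in cystic fibrosis. It had log2 levels of 7.25, 6.85, 5.46 and 7.09 in GFP+ cells of odor pools, against 11.06, 9.04, 10.43 and 9.29 in GFP- cells. In vehicle pools the levels were 6.73, 6.18, 6.12 and 6.27 in GFP+ cells, against 12.19, 9.26, 9.56 and 8.91 in GFP- cells. The fractions did not overlap. Cftr was lower in GFP+ cells by -3.29 ± 0.49 in odor pools (SE, n = 4, limma adjusted p = 5.04e-04) and by -3.65 ± 0.49 in vehicle pools (adjusted p = 2.20e-04).

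Coch encodes cochlin, an extracellular matrix protein first known from the inner ear. It had log2 levels of 11.60, 11.24, 11.25 and 11.16 in GFP+ cells of odor pools, against 15.24, 13.45, 14.16 and 13.27 in GFP- cells. The vehicle pools had 11.61, 11.18, 11.40 and 10.95 in GFP+ cells, against 16.42, 13.60, 14.25 and 13.16 in GFP- cells. Unlike the other genes of the list, Coch stayed more than 4 log2 units above every background median in GFP+ cells. It was lower there by -2.72 ± 0.38 in odor pools (SE, n = 4, limma adjusted p = 2.97e-04) and by -3.07 ± 0.38 in vehicle pools (adjusted p = 1.12e-04).

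Hepacam2, a cell adhesion molecule of the immunoglobulin family, had log2 levels of 7.29, 6.30, 5.66 and 6.003 in GFP+ cells of odor pools, against 12.62, 11.29, 11.43 and 11.89 in GFP- cells. In the vehicle arm the levels were 7.81, 6.44, 6.67 and 6.76 in GFP+ cells, against 13.78, 11.45, 11.78 and 11.77 in GFP- cells. Every GFP+ sample lay well under every GFP- sample. Hepacam2 was lower in GFP+ cells by -5.50 ± 0.20 in odor pools (SE, n = 4, limma adjusted p = 7.96e-09), a 45.2-fold difference, and by -5.27 ± 0.20 in vehicle pools (adjusted p = 1.02e-08), a 38.7-fold difference.

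The proton pump has a membrane sector (V0) and a cytosolic sector (V1), and several subunits exist as a broadly expressed and a specialised copy. Atp6v0d2, a specialised copy of the V0 subunit d, had log2 levels of 5.82, 4.40, 4.60 and 4.87 in GFP+ cells of odor pools, against 9.30, 7.44, 7.18 and 7.04 in GFP- cells. In vehicle pools it had 4.59, 4.70, 5.33 and 4.69 in GFP+ cells, against 10.30, 7.09, 7.61 and 7.14 in GFP- cells. Only odor replicate 1 was above the background in GFP+ cells. With GFP+ levels under background set to it, Atp6v0d2 was at least 3.59-fold lower in GFP+ cells of odor pools (limma adjusted p = 0.00119 on the measured values) and at least 4.59-fold lower in those of vehicle pools (adjusted p = 4.49e-04). The vehicle limit was 2.69-fold without vehicle replicate 1.

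Atp6v1b1, the kidney and inner ear copy of the V1 subunit B, was a dim member. It had log2 levels of 4.79, 5.19, 4.73 and 5.15 in GFP+ cells of odor pools, against 6.21, 6.03, 5.76 and 6.54 in GFP- cells. Levels in vehicle pools were 5.19, 5.07, 5.57 and 5.17 in GFP+ cells, against 6.41, 5.50, 5.95 and 5.97 in GFP- cells. The vehicle fractions overlapped, since GFP+ replicate 3 lay above GFP- replicate 2. All 8 GFP+ samples were under the background, as were the GFP- samples of odor replicate 3 and vehicle replicate 2. With GFP+ levels set at the background, the gene was at least 1.18-fold lower in odor pools and at least 1.09-fold lower in vehicle pools. On the measured values the limma adjusted p was 3.92e-04 in odor pools and 0.0125 in vehicle pools. Without vehicle replicate 1 the vehicle call was lost (adjusted p = 0.0690) and no limit above 1 remained, and the call was also lost without vehicle replicate 4 (adjusted p = 0.0541).

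Atp6v1g3, a kidney copy of the V1 subunit G, and Moxd2, a relative of dopamine beta-hydroxylase, were under the background on all 16 arrays. In odor pools Atp6v1g3 ranged over 4.90 to 5.43 in GFP+ cells and over 4.33 to 5.58 in GFP- cells. Moxd2 ranged over 3.53 to 3.99 in GFP+ cells of odor pools and over 3.37 to 4.17 in their GFP- cells. Neither passed the test in either arm, and a gene under background on every array has no measured difference here.

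**Figure D2:**
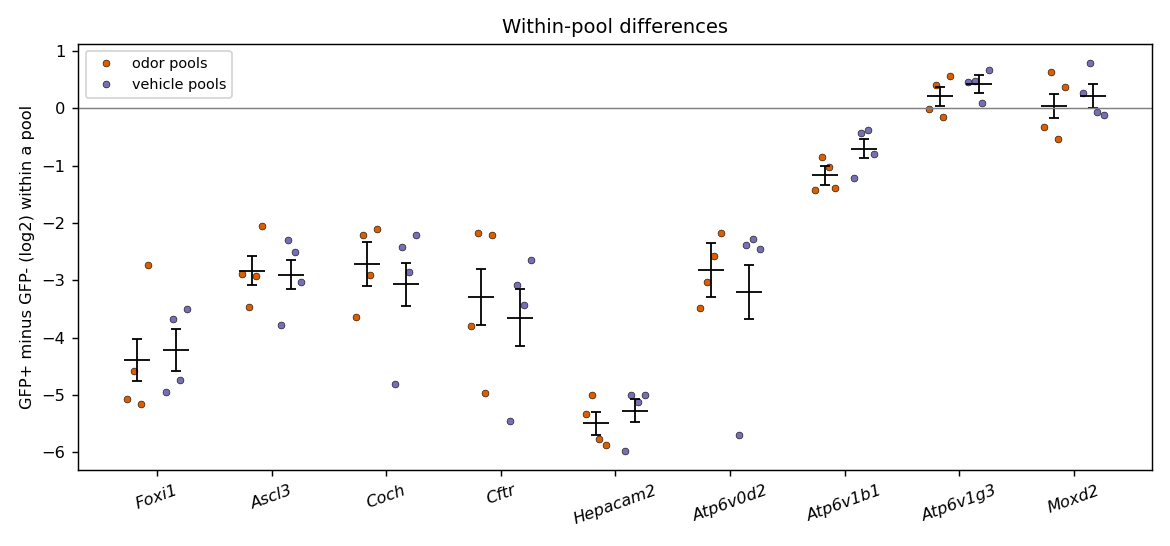
Difference of log2 levels, GFP+ minus GFP-, within each pool (vertical axis) for the 9 measured genes, odor pools left of vehicle pools. Points are pools, long ticks are the fitted means and bars are the SE of the fit, on levels as measured, those under background included. All points of Foxi1, Ascl3, Coch, Cftr, Hepacam2, Atp6v0d2 and Atp6v1b1 lie under 0, and vehicle replicate 1 is the most negative vehicle pool for each of these 7 genes.

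To ask whether the specialised pump subunits differed from their broadly expressed copies, the difference between fractions of each was set against that of its paralog in the same pool, with an exact two-sided sign-flip permutation test over 8 pools. Atp6v0d2 was above background in 1 of 8 GFP+ samples and Atp6v1b1 in 0 of 8. Each level under its array's background was therefore set to that background, a setting added after seeing the data. The values are limits for Atp6v0d2 only. Atp6v0d2 then lay under Atp6v0d1 by -2.13 ± 1.24 (SD, n = 8), in 8 of 8 pools (permutation p = 0.00781, the smallest that 8 pools allow, adjusted p = 0.00781 over 2 pairs). Atp6v1b1 then lay under Atp6v1b2 by -0.33 ± 0.25 (SD, n = 8), in 8 of 8 pools (permutation p = 0.00781, adjusted p = 0.00781). In odor replicate 3 and vehicle replicate 2, however, Atp6v1b1 was under background in both fractions. Its difference there is only a gap between background medians. The sign in those pools therefore does not measure Atp6v1b1, and this p-value does not rest on 8 measured differences. The broad copies Atp6v0d1 and Atp6v1b2 differed between fractions by 0.11 ± 0.12 and 0.05 ± 0.15 in odor pools (SE, limma adjusted p = 0.576 and 0.867).

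Moxd2 and Atp6v1g3, under background throughout, could not be set against their paralogs Moxd1 and Atp6v1g1. Moxd1, a copper-dependent monooxygenase gene, had log2 levels of 6.88, 7.00, 6.56 and 6.90 in GFP+ cells of odor pools, against 9.05, 7.82, 8.63 and 7.89 in GFP- cells. Levels in vehicle pools were 6.65, 6.24, 6.21 and 6.82 in GFP+ cells, against 10.27, 7.76, 8.54 and 8.09 in GFP- cells. Its fractions did not overlap. Moxd1 was lower in GFP+ cells by -1.51 ± 0.35 in odor pools (SE, n = 4, limma adjusted p = 0.0103) and by -2.18 ± 0.35 in vehicle pools (adjusted p = 8.29e-04). The odor call of Moxd1 was lost without odor replicate 1 (adjusted p = 0.0588) or replicate 3 (adjusted p = 0.0599).

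Over the whole pump, 24 of 25 listed subunit genes were measured. In each arm 4 were lower in GFP+ cells and 1 was higher. Over all genes, 10.6% were lower in odor pools and 10.8% in vehicle pools, and 7.96% and 8.86% were higher. The list's median difference was 0.20 in odor pools and 0.09 in vehicle pools. Beside Atp6v0d2 and Atp6v1b1, the lower ones were Atp6v1c2, an epithelial copy of subunit C, at least 1.85-fold lower in odor pools and at least 1.82-fold lower in vehicle pools (limma adjusted p = 6.61e-04 and 0.00102) and under background in all GFP+ samples, and Tcirg1, the a3 subunit known from osteoclasts. Tcirg1 differed by -1.15 ± 0.19 in odor pools and -0.87 ± 0.19 in vehicle pools (limma adjusted p = 0.00126 and 0.00774). Atp6v1g2, the neuronal copy of subunit G, was higher in GFP+ cells by 0.72 ± 0.18 in odor pools and 0.64 ± 0.18 in vehicle pools (limma adjusted p = 0.0168 and 0.0292).

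**Figure D3:**
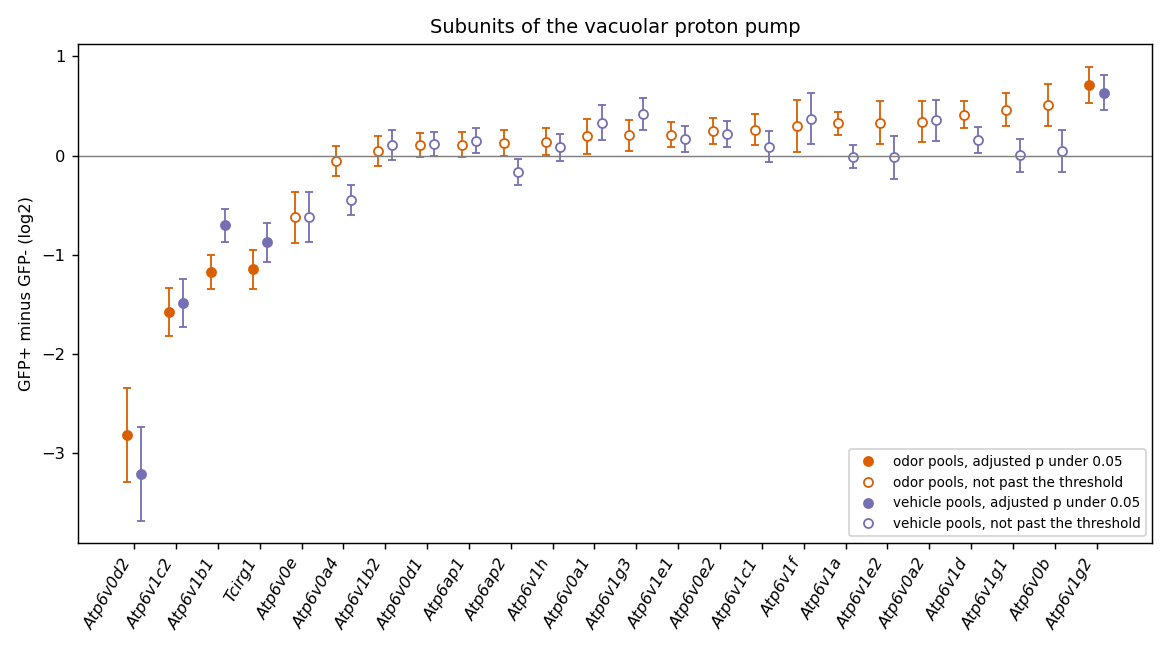
Difference of log2 levels, GFP+ minus GFP- (vertical axis), for the 24 measured subunit genes of the V-ATPase, ordered by the value in odor pools. Points are fitted means of 4 odor pools (orange) and 4 vehicle pools (purple) with SE bars, on levels as measured, those under background included, and filled where the adjusted p was under 0.05. Atp6v0d2, Atp6v1c2, Atp6v1b1 and Tcirg1 lie under 0 and Atp6v1g2 lies above 0 in both arms, and the other subunits are open points.

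A list of other genes known from ionocytes of the kidney, inner ear and airway had 15 measured members. By the test 3 were lower in odor pools, namely Stap1, Atp6v1c2 and Bsnd, and 6 in vehicle pools, where Tfcp2l1, Dmrt2 and Car2 were added, against 10.6% and 10.8% of all genes. Stap1, a signalling adaptor gene, had log2 levels of 6.12, 5.25, 5.31 and 5.79 in GFP+ cells of odor pools, against 11.75, 10.16, 10.20 and 9.96 in GFP- cells. The vehicle pools had 6.89, 5.48, 5.48 and 6.16 in GFP+ cells, against 13.19, 10.52, 10.22 and 9.94 in GFP- cells. Its fractions did not overlap, and in GFP+ cells it was above background in 1 of 4 odor and 2 of 4 vehicle samples. With GFP+ levels under background set to it, Stap1 was at least 23.4-fold lower in odor pools and at least 27.1-fold lower in vehicle pools (limma adjusted p = 8.14e-07 and 7.87e-07 on the measured values). Bsnd, which encodes barttin, the partner of kidney chloride channels, passed (limma adjusted p = 0.0378 in odor and 0.0268 in vehicle pools) but was above background in 0 of 8 GFP+ and 2 of 8 GFP- samples, so no fold is given. Dmrt2, a transcription factor gene, was at least 2.56-fold lower in GFP+ cells of vehicle pools (limma adjusted p = 0.00823), all under background, and did not pass in odor pools (adjusted p = 0.102). The transcription factor gene Tfcp2l1 differed by -0.66 ± 0.21 in odor pools and -0.77 ± 0.21 in vehicle pools (limma adjusted p = 0.0536 and 0.0255). For Car2, a carbonic anhydrase gene, the differences were -0.56 ± 0.20 in odor pools and -0.76 ± 0.20 in vehicle pools (limma adjusted p = 0.0781 and 0.0214). Whether these differences depended on the odor was covered by the test of the 2 arms against each other, in which 0 of the 15 passed. In that test 0 of all 19505 genes passed, so the count does not set these 15 apart.

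Itpr3, a receptor for inositol trisphosphate that is used to label microvillar cells, was not analysed, but its pathway was in part. Of 8 measured inositol trisphosphate receptor, phospholipase C and channel genes, 4 were lower in odor pools and 3 in vehicle pools, against 10.6% and 10.8% of all genes, with 1 higher in each, a share near the 7.96% and 8.86% of all genes. Itpr2, Plcg2 and Plcb2 were under background in all GFP+ samples and above it in all GFP- samples. Itpr2, the type 2 receptor, was at least 4.82-fold lower in GFP+ cells of odor pools and at least 6.51-fold lower in those of vehicle pools (limma adjusted p = 6.03e-08 and 3.57e-08). The limits were 3.88-fold and 4.09-fold for Plcg2, a phospholipase C of immune receptor signalling (limma adjusted p = 3.75e-07 and 5.46e-07), and 1.96-fold and 1.80-fold for Plcb2, the phospholipase of taste transduction (limma adjusted p = 9.27e-07 and 2.18e-06). Plcb1, the remaining one of the 4 that passed in odor pools, was under background on all 16 arrays and has no measured difference. Plcb4 was higher in both arms, at 0.44 ± 0.13 in odor pools and 0.42 ± 0.13 in vehicle pools (limma adjusted p = 0.0423 and 0.0478). These genes are also used by Trpm5 microvillar cells, and Plcg2 and Itpr2 by leukocytes.

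Of 12 chloride channel and transporter genes measured, Cftr and Ano6 were lower and Ano2 was higher in GFP+ cells of both arms. These counts are near the shares of all genes, 10.6% and 10.8% lower and 7.96% and 8.86% higher in odor and vehicle pools. Ano6, a calcium-activated scramblase and channel gene, differed by -0.60 ± 0.15 in odor pools and -0.62 ± 0.15 in vehicle pools (limma adjusted p = 0.0158 and 0.0122). Ano2, the calcium-activated chloride channel of sensory neuron cilia, differed by 0.44 ± 0.12 in odor pools and 0.38 ± 0.12 in vehicle pools (limma adjusted p = 0.0267 and 0.0494). Cftr was the chloride channel gene of this list with the widest difference in these pools.

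The separation was not particular to ionocyte-like genes. Of 14 measured markers of Trpm5 microvillar and brush cells, 12 were lower in GFP+ cells in each arm, as were 6 of 8 sustentacular cell markers and 7 of 7 neutrophil markers. Over all genes, 10.6% were lower in odor pools and 10.8% in vehicle pools. On the Trpm5 list, Chat was under background on every array and has no measured difference. Sh2d6 and Gnat3 were each above background in GFP- cells of 3 of 4 odor pools and 1 of 4 vehicle pools. Not every other marker list was lower. Of 5 respiratory ciliated cell markers, 0 were lower and 3 were higher in each arm, against 7.96% and 8.86% of all genes higher. The log2 of their summed level was 15.58 to 16.20 in GFP+ cells of odor pools and 15.83 to 16.15 in those of vehicle pools. These genes were thus bright in the GFP+ fraction, and which cells their transcripts came from was not tested. Of 3 olfactory ensheathing glia markers, 1 was lower in odor pools, Sox10, and 0 in vehicle pools. Sox10 and S100b, however, were under background on every array and have no measured difference. Fabp7 was above background in all 4 samples of each group and did not pass in either arm. The glia list therefore rests on Fabp7 alone and cannot show whether glia differed between the fractions. The cation channel gene Trpm5 had log2 levels of 5.28, 5.38, 5.40 and 4.56 in GFP+ cells of odor pools, against 8.73, 9.21, 8.50 and 9.26 in GFP- cells. It was under the background in all 8 GFP+ samples and at least 8.19-fold lower there in odor pools (limma adjusted p = 9.92e-07). Vehicle pools gave 4.81, 5.64, 5.27 and 5.07 in GFP+ cells, against 8.57, 8.44, 8.53 and 9.24 in GFP- cells, at least 7.26-fold lower in GFP+ cells (limma adjusted p = 1.94e-06).

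Whether the odor changed the ionocyte-like genes was asked in 3 ways. The difference between fractions was compared between odor and vehicle pools, and odor was compared with vehicle in GFP- and in GFP+ cells. None of the 9 genes passed in any of the 3 limma tests, and 0 had an unadjusted p under 0.05 in each. Over all genes 0%, 0.00513% and 0% passed, which is 1 gene, the odorant receptor gene Olfr76 in GFP- cells, and 3.35%, 3.57% and 5.49% had an unadjusted p under 0.05. In GFP- cells Foxi1 differed between odor and vehicle by 0.02 ± 0.64 (SE, n = 4 pools per arm, 95% interval -1.40 to 1.44), Coch by -0.33 ± 0.65 (interval -1.76 to 1.10) and Cftr by -0.02 ± 0.68 (interval -1.52 to 1.47). Hepacam2 differed by -0.39 ± 0.48 (interval -1.44 to 0.66) and Ascl3 by -0.04 ± 0.37 (interval -0.86 to 0.78). These intervals are wide, so that a change of 2-fold in either direction, which is 1 on the log2 scale, lay inside those of Foxi1, Coch and Cftr. Between the 4 groups, each of the 7 detected genes therefore had the order GFP+ below GFP-, with the odor and vehicle groups of a fraction not separated beyond their spread.

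The width of these intervals came with large differences between pools of the GFP- cells. Over the 8 GFP- samples the SD was 1.10 for Foxi1, 1.13 for Coch, 1.16 for Cftr and 1.22 for Atp6v0d2 on the log2 scale, larger than that of 99.59%, 99.63%, 99.69% and 99.78% of all genes. Vehicle replicate 1 was highest and odor replicate 1 second for Foxi1, Coch, Cftr, Atp6v0d2 and Hepacam2, and for Stap1 and Moxd1 as well. Vehicle replicate 1 lay above odor replicate 1 by 0.92 for Foxi1, 1.18 for Coch and 1.13 for Cftr. Trpm5 ordered the pools differently, with odor replicate 4 highest. Without vehicle replicate 1 the difference between fractions in vehicle pools was -2.49 for Coch and -2.37 for Atp6v0d2, and both still passed the test.

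**Figure D4:**
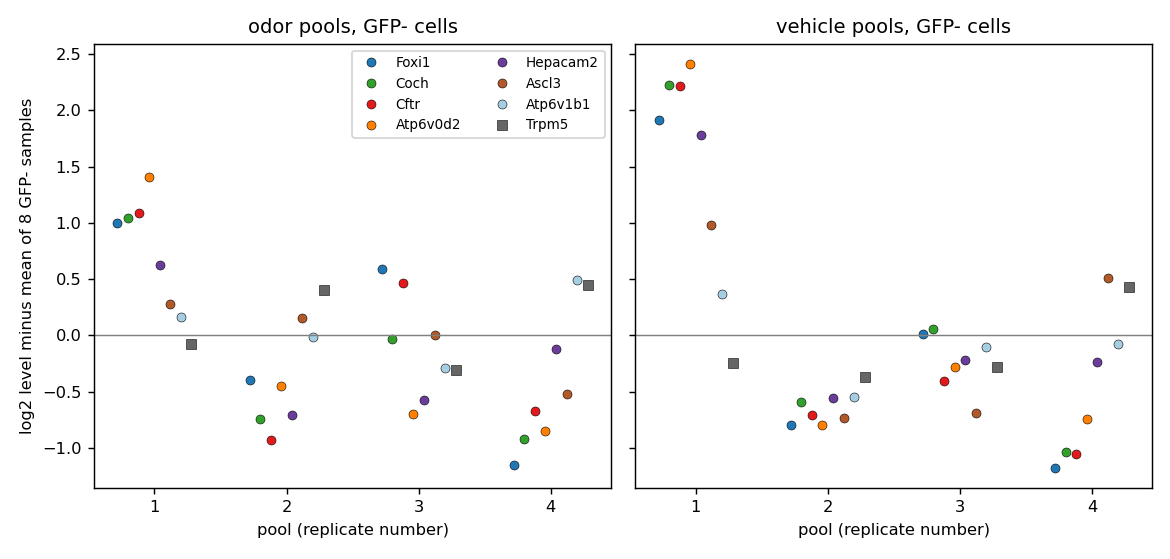
Log2 level in GFP- cells minus the mean of the 8 GFP- samples (vertical axis) by pool number (horizontal axis), odor pools left and vehicle pools right, for the 7 detected genes (circles) and Trpm5 (grey squares). In both panels pool 1 holds the highest points of Foxi1, Coch, Cftr, Atp6v0d2 and Hepacam2, while Trpm5 stays within 0.5 of its mean in every pool.

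Some marker lists of other cells were also highest in vehicle replicate 1. In GFP- cells, 8 of 8 sustentacular markers and 6 of 7 neutrophil markers were highest there, as were 4 of 14 Trpm5 cell markers, 1 of 9 mature neuron markers, 0 of 7 Bowman's gland markers and 0 of 5 globose basal cell markers, against 15.93% of all genes. In odor replicate 1 the median deviation from the GFP- mean was 0.15 for sustentacular markers and 0.86 for neutrophil markers, against 0.62 for the 9 ionocyte-like genes. The summed level of the sustentacular markers, as the log2 of the sum, was 14.80 to 15.19 in GFP+ cells and 16.35 to 16.53 in GFP- cells of odor pools. In vehicle pools it was 14.50 to 15.31 in GFP+ cells and 16.30 to 17.07 in GFP- cells. For neutrophil markers the sums were 7.89 to 9.49 in GFP+ cells and 17.36 to 18.76 in GFP- cells of odor pools, and 7.98 to 9.15 in GFP+ cells and 17.27 to 19.03 in GFP- cells of vehicle pools. Their part in the differences between pools was not tested. The labels do not say whether pools of the same number were handled together.

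How closely the genes moved with Foxi1 was measured by Pearson and Spearman correlation over the 8 GFP- samples, with exact permutation p-values over 40320 orders and adjustment over the 16 genes compared. The genes were chosen with the pool differences known, and same-numbered pools may not be independent. Coch followed Foxi1 at r = 0.959 (n = 8, permutation adjusted p = 0.00397) and rho = 0.952 (permutation adjusted p = 0.0183). Cftr followed it at r = 0.955 (n = 8, permutation adjusted p = 0.00397) and rho = 0.905 (permutation adjusted p = 0.0365). Both kept a high coefficient without the 2 samples farthest from the median, odor and vehicle replicate 1, at r = 0.901 for Coch and 0.845 for Cftr, where neither passed over 6 samples (permutation adjusted p = 0.0722 and 0.0889). Kit, a gene of globose basal cells and mast cells, had r = 0.607 over all samples (n = 8, permutation adjusted p = 0.203) and rho = 0.738 (permutation adjusted p = 0.105). Over the 6 samples it had r = 0.998 (permutation adjusted p = 0.0222), higher than Coch and Cftr.

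Of the other genes with a Pearson correlation that passed over 8 samples, none passed without those 2 samples. Atp6v0d2 had r = 0.876 (n = 8, permutation adjusted p = 0.0109) and rho = 0.857 (permutation adjusted p = 0.0571), and r = 0.501 without them. Hepacam2 had r = 0.754 (n = 8, permutation adjusted p = 0.0529) and rho = 0.405 (permutation adjusted p = 0.523), and r = -0.45 without them. Moxd1 had r = 0.929 (n = 8, permutation adjusted p = 0.00688) and rho = 0.786 (permutation adjusted p = 0.0894), and r = 0.776 without them. Stap1 had r = 0.860 (n = 8, permutation adjusted p = 0.0133) and rho = 0.833 (permutation adjusted p = 0.0615), and r = 0.337 without them. The sustentacular gene Cyp2g1 had r = 0.864 (n = 8, permutation adjusted p = 0.0117) and rho = 0.738 (permutation adjusted p = 0.105), and r = 0.506 without them. Ascl3 and Atp6v1b1 did not pass, at r = 0.567 and 0.252 (n = 8, permutation adjusted p = 0.208 and 0.622), with rho = 0.333 and 0.143 (permutation adjusted p = 0.571 and 0.802). Trpm5 had r = -0.58 (permutation adjusted p = 0.208) and rho = -0.43 (permutation adjusted p = 0.523). Over all 21 pairs of the 7 detected genes, r ranged from 0.25 to 0.97 with a median of 0.67.

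The genes most like each detected gene were sought over all 19505 genes by the Pearson correlation of deviations from the arm mean over the 8 GFP- samples, given as a description. Foxi1 was most like Muc20 (r = 0.993), Scnn1b (r = 0.992) and Hes5 (r = 0.987). Without odor replicate 3, the sample that stood apart, the values were 0.979, 0.966 and 0.734, so that Hes5 rested in part on that sample. Muc20 encodes a membrane mucin, Scnn1b the beta subunit of the epithelial sodium channel and Hes5 a Notch target repressor. Coch was the 8th gene most like Foxi1 and Cftr the 27th. Coch was most like Grb14, Muc20 and Rcan2 (r = 0.991, 0.988 and 0.986), and Cftr most like Esrrg, Chrna4 and Pam (r = 0.996, 0.983 and 0.983). Of these, Grb14, Esrrg and Chrna4 had mean levels under every background median, at 3.67, 5.11 and 4.77 in GFP- cells.

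The other detected genes had different neighbours. Atp6v0d2 was most like Tmem176b, Gm3500 and Gm3411 (r = 0.996 each), and Hepacam2 most like Cav2, Rpl22l1 and Gm10406 (r = 0.992, 0.986 and 0.985). Ascl3 was most like Gm16445, Plau and Itih3 (r = 0.987, 0.971 and 0.968), all 3 under every background median. Atp6v1b1 was most like Ms4a6c, Meis2 and Olfr1158 (r = 0.984, 0.974 and 0.966). Cav2 and Olfr1158 also lay under every background median, at means of 4.81 and 4.65 in GFP- cells.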

How the data were processed

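The authors deposited 1 value per probe and array, which was taken as log2 from its range, since no source used here states the scale. Affymetrix Expression Console made the values, per the submitters' processing notes, with no version, normalization or summarization given in the sources used here. Of 28846 probes, 19572 had 1 gene symbol. The brightest probe stood for each of 55 genes with several, which left 19505 genes. Array depth has no counterpart here, so the 4 pools per arm limit the precision.

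GFP+ minus GFP- was taken within each pool, matched by the pool code in the titles, and fitted with limma 3.58.1 in R 4.3.3 (1 moderated variance per gene over both arms, so each SE pools both). Odor was compared with vehicle in the same fit and separately in GFP- and GFP+ samples. P-values are two-sided and adjusted by Benjamini-Hochberg over 19505 genes. They measure the spread between pools of 3 mice. A fold written as "at least", or called a limit, sets each GFP+ array at the higher of its own value and its background median. The limma adjusted p given with such a fold tests the measured values and not the limit. The sign-flip test was run in R. The correlation permutations used numpy 2.4.6, with ranks and adjustment from scipy 1.17.1.

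Fractions of a pool deviated together (correlations 0.109 to 0.249). Number 3 stands in the titles of both the third and the fourth vehicle pool, and the fourth was numbered 4 here. Pools of the same number in both arms correlated at 0.114 to 0.242 in GFP+ cells, 0.066 to 0.332 in GFP- cells and 0.097 to 0.305 in the within-pool difference. Samples were paired only as the GFP+ and GFP- fractions of a pool. The pool number was not a block in the main fits and was tried as a block among the alternatives. In GFP- cells the same-number correlations were 0.327 for number 1 and 0.332 for number 3, above those of fractions of a pool. In simulated data built from these arrays, with 19505 genes of which 200 changed, the within-pool test recovered 65.6% of changes of 1 and 96.1% of changes of 2 in odor pools. The GFP- test of odor against vehicle recovered 54.3% and 93.2%. These shares are over the changed genes as a whole and were not worked out for the members. Foxi1, Coch, Cftr and Atp6v0d2 had a GFP- SD larger than that of at least 99.59% of genes. The GFP- shares therefore cannot be taken to hold for those 4 genes.

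The members and all gene lists were chosen with earlier results of these data known. Named are all members, the called genes of the other lists with the largest differences in odor pools (up to 8 for the pump and 5 for the other ionocyte, phospholipase and chloride lists), paralogs, and the 3 genes most like each detected member. Stap1, Moxd1 and Trpm5 were followed as comparison genes.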

Additional observations from a re-analysis of the deposited data

Results flagged for a closer look

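In each group of 4, a sample was singled out where its gap to the nearest other sample exceeded Dixon's 95% critical value as a share of the group's range. Of 72 sets of 4 values for 12 genes, 9 were singled out, and chance singles out about 1 in 20 of independent sets. The sets were not independent, since within-pool differences reuse the levels and several of the genes moved together. The count of 9 therefore does not show an excess over chance. Vehicle replicate 1 stood above its group for Foxi1 in GFP+ cells, at 7.92 against 6.23 to 6.48 in the other pools. In GFP- cells the same pool stood above for Atp6v0d2, at 10.30 against 7.09 to 7.61, and for Hepacam2, at 13.78 against 11.45 to 11.78. Its within-pool difference was -5.71 for Atp6v0d2, against -2.45 to -2.28, and -5.97 for Hepacam2, against -5.12 to -5.00. Odor replicate 1 stood above for Stap1 in GFP- cells, at 11.75 against 9.96 to 10.20.

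The others lay elsewhere. Vehicle replicate 3 stood above for Atp6v0d2 in GFP+ cells, at 5.33 against 4.59 to 4.70, all under the background. Trpm5 was at 4.56 in GFP+ cells of odor replicate 4, against 5.28 to 5.40, also under the background, and at 9.24 in GFP- cells of vehicle replicate 4, against 8.44 to 8.57.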

How the results depend on the processing

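The count of genes lower in GFP+ cells was 7 of 9 in both arms also without the pairing by pool, and with the replicate number as a block 0 of 9 passed between odor and vehicle in GFP- or GFP+ cells. Of 1095 single differences under the alternatives tried, 1084 kept their side of the threshold and none that passed changed sign. Another 80 that passed in no fit did so. The 1095 include comparisons of odor with vehicle, in each of which at most 1 of all genes passed in the main fits. That these kept their side says little. All that changed side were differences between GFP+ and GFP- cells. Centring each array on its median moved the median difference of all genes from 0.11 to 0.34 in odor pools and the number of genes called there from 3620 to 8224, with 78.5% of calls higher against 42.9%, and 67.6% against 45.1% in vehicle pools. With it, Atp6v1g3, under background throughout, passed as higher (0.43 in odor pools, 0.57 in vehicle pools, adjusted p = 0.0407 and 0.0162), as it did in vehicle pools with quantile normalization (0.47, adjusted p = 0.0327) and without both pools numbered 3 (0.53, adjusted p = 0.0416). The Atp6v1g3 minus Atp6v1g1 difference, of no meaning under background and 0.08 over all pools, ran from -0.039 to 0.22 with 1 pool left out, at -0.039 without vehicle replicate 4 and -0.024 without vehicle replicate 1, and was -0.26 in odor pools alone. Without moderation of variances Moxd1 lost its odor call (adjusted p = 0.0799), and without both pools numbered 3 as well (0.0822). Without both pools numbered 1, an alternative added after seeing the data, Atp6v1b1 lost its vehicle call (adjusted p = 0.0808). Without odor and vehicle replicate 1, also added later, the correlation with Foxi1 turned to -0.19 for Krt18 (0.78 over all 8) and to -0.94 for the neutrophil gene Ngp (0.10 over all 8). The cause of these changes was not tested. On measured levels the paralog differences were -3.13 for Atp6v0d2 and -1.01 for Atp6v1b1. Levels under background limit Ascl3, Atp6v1b1 and Atp6v0d2.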
